A study of Mus musculus with 6 samples.

Results

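The transcripts of the E2F transcription factors and of the retinoblastoma proteins that bind them were followed in mouse M2 macrophages (Mφs) in which the tRNA fragment 5′tRF-Glu(CTC) had been blocked. Members were the rows of the gene count table with the symbols E2f1 to E2f8, Rb1 and Rbl1, which are 10 of 41549 genes listed. All 10 were among the 11933 genes that passed the filter on low counts, and E2f7 passed only through the control libraries. Wild-type bone marrow macrophages had been grown with macrophage colony-stimulating factor from C57BL/6N mice and transfected while naïve with a locked nucleic acid antisense against the fragment (αGlu) or with a control oligonucleotide (Ctr). Both groups were then polarized with IL-4 and IL-13 and sequenced as poly(A) RNA of the whole culture, with 3 libraries each. The study describes replicates of primary cells as preparations from different organisms, although the labels gave neither the animal nor a batch for a library, and the ages in the study's text differ from one place to another. The antisense and the stretch of the fragment it was designed against follow, since they define the αGlu group, and the capitals mark the 20 paired bases. The fragment itself is not measured in libraries of messenger RNA, so its blockade was not checked here.
antisense oligonucleotide: taaccactagaccaccaggg
target: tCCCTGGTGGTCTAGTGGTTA

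E2F proteins bind the promoters of genes for DNA replication and division and switch them on or off as cells leave or enter rest. E2F1, E2F2 and E2F3 mainly activate, E2F4 and E2F5 mainly repress together with a pocket protein (RB1, RBL1 or RBL2), E2F6 represses through Polycomb complexes without a pocket protein, and E2F7 and E2F8 repress without either a pocket protein or a dimerisation partner. Cyclin-dependent kinases phosphorylate the pocket proteins, which releases E2F and opens the way into S phase. Bone marrow macrophages divide under macrophage colony-stimulating factor and can slow down when they are activated.

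The libraries held 17912831 to 30386653 reads over exons, and no pair was close enough to be a single library deposited again. Across the genes tested, log2 CPM (reads scaled to a common depth) gave a Pearson r of 0.978 to 0.988 between Ctr libraries and of 0.992 between αGlu 2 and αGlu 3. αGlu 1 stood apart from its group, with an r of 0.929 to αGlu 2 and αGlu 3 and of 0.966 to 0.982 to the Ctr libraries (all across genes, which are not independent replicates). In this the library labelled αGlu 1 was nearer to the Ctr libraries than to its own group. The labels give no reason, and whether it received the same treatment as αGlu 2 and αGlu 3 was not tested. Values for members and medians of gene lists are therefore given with and without αGlu 1. The library was singled out from these same data. Fits without it keep only αGlu 2 and αGlu 3 in their group, which were alike, so SE and adjusted p-values there tend to be small. Calls from these fits are a description and no support. All 8 macrophage markers lay above 1 CPM, and their sum was 12169 to 13708 CPM in Ctr and 12990 to 19206 CPM in αGlu, with Lyz2 the most abundant. Of 8 neutrophil markers 3 lay above 1 CPM, with a sum of 126 to 206 CPM in Ctr and 238 to 635 CPM in αGlu, most of it Csf3r, while Ly6g and Retnlg had 0 reads. Of 7 markers of haematopoietic progenitors, a dividing cell type, 3 lay above 1 CPM, and their sum was 4.45 to 7.45 CPM in Ctr and 1.43 to 3.95 CPM in αGlu, led by Kit. No marker of dendritic cells, fibroblasts, lymphocytes, mast cells and basophils or erythroid cells had a mean above 1 CPM. The part of these cell types in the results below was not tested.

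The members did not all go one way. The atypical repressors E2f7 and E2f8 and the Polycomb-linked E2f6 were lower in every αGlu library than in any Ctr library, and Rb1 was higher in every one. E2f5 was at about double its Ctr level in αGlu 2 and αGlu 3 alone, Rbl1 was high in αGlu 1 and low in the other αGlu libraries, and the activators E2f1, E2f2 and E2f3 had overlapping groups. With edgeR's quasi-likelihood test on all 6 libraries, 0 of the 10 members and 0 of all genes tested (0%) were called at an adjusted p under 0.1 with an absolute log2 fold change above 1, the smallest adjusted p of any gene being 0.149. An unadjusted p under 0.05 was found for 5 members, with E2f5 and Rb1 higher and E2f6, E2f7 and E2f8 lower, against 24.7% of all genes tested. Groups did not overlap for 4 members, with 1 higher and 3 lower, against 30.2% of all genes tested (14.2% higher and 15.9% lower). Leaving out αGlu 1, 4 members were called, namely E2f5 as higher and E2f7, E2f8 and Rbl1 as lower, against 18.6% of 12340 genes (8.05% higher and 10.5% lower), and with no fold limit 8 members, with 4 in each direction, against 49.1% (23.5% higher and 25.6% lower). DESeq2 on all 6 libraries called E2f7 and E2f8, both lower, against 8.16% of 13707 genes (4.23% higher and 3.93% lower), and with no fold limit also E2f6 as lower and E2f5 and Rb1 as higher, against 15.9% (7.77% higher and 8.13% lower). The likelihood-ratio test of edgeR called the same 2 members as DESeq2, E2f7 and E2f8, against 7.53% of the genes tested (3.87% higher and 3.66% lower). E2f7 is among the lower members wherever such members are counted above. It passed the filter of the edgeR fits only through the Ctr libraries and could hardly come out otherwise, so its place in these counts is no support. Fold changes here are αGlu over Ctr on the log2 scale ± SE from the quasi-likelihood fit, and adjusted p-values are over all genes. RNA came from whole cultures, so fewer cells that express a gene and less of its RNA per cell cannot be told apart.

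**Figure D1:**
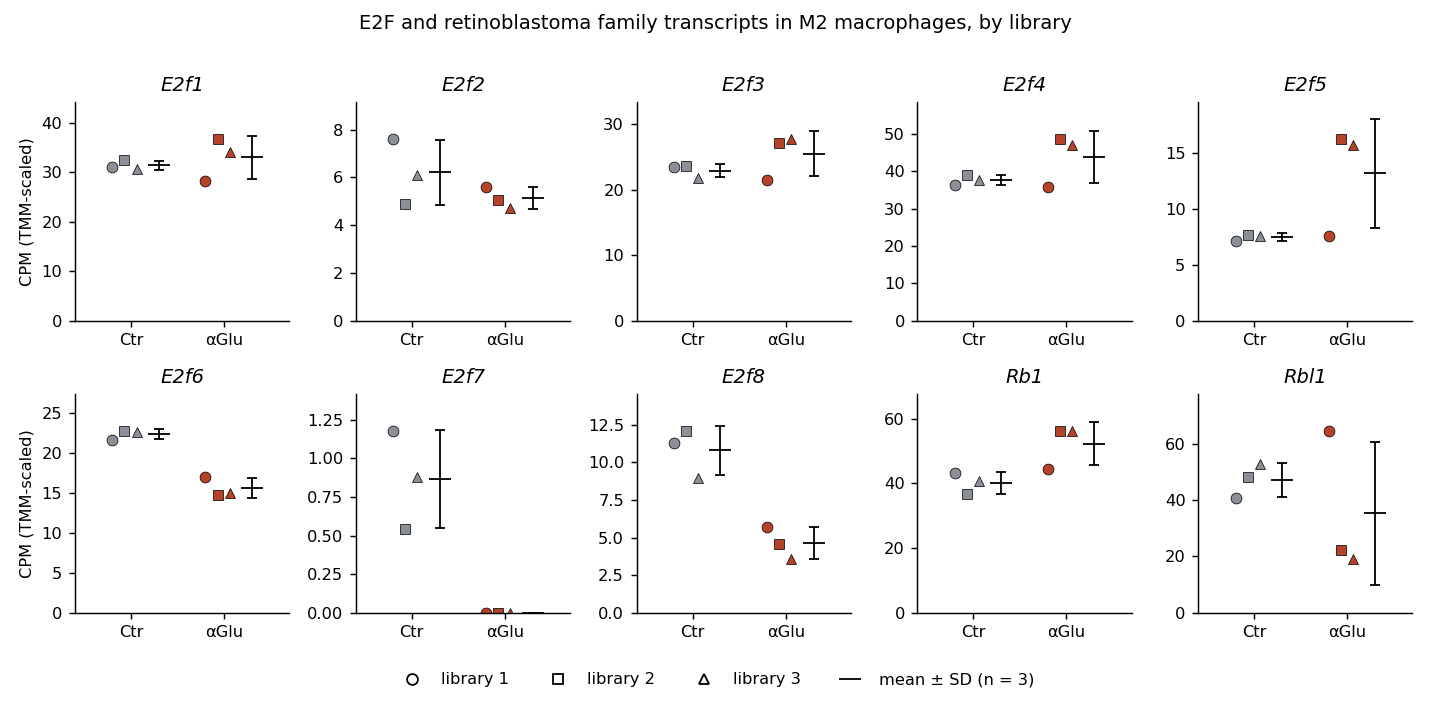
TMM-scaled CPM (linear axis from 0) of the 10 members in each library, with Ctr in grey and αGlu in red, symbols for the library number, and the mean and SD (n = 3) beside them. E2f6, E2f7 and E2f8 lie lower and Rb1 lies higher in all αGlu libraries, while αGlu 1 lies among the Ctr libraries for E2f5 and above all of them for Rbl1.

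E2F7 and E2F8 are closely related repressors whose own genes are E2F targets, so that they close a feedback loop late in S phase. E2f7 (ENSMUSG00000020185, chr10:110745439-110787384, plus strand, GRCm38) had 26, 13 and 19 reads in Ctr 1, 2 and 3 and 0 reads in each αGlu library, and the gene on its other strand, 1700020G17Rik, had 0 reads in all 6. The Ctr values correspond to 1.18, 0.543 and 0.881 CPM. A count of 0 allows up to 0.172 CPM in αGlu 1, the shallowest library, 0.0944 CPM in αGlu 2 and 0.110 CPM in αGlu 3 (3 counts per library, counting error only). Every Ctr library was above these limits. Pooled over the groups, 58 reads in Ctr against a limit of 3 reads in αGlu correspond to a 21.9-fold lower level in αGlu. This ratio takes the Ctr reads as exact and leaves out the spread between libraries, so it is no firm lower bound. The adjusted p of E2f7 over all genes was 0.149 with the quasi-likelihood test. With limits taken from E2f7 itself (0 reads in every αGlu library and at least its lowest Ctr count of 13 in each Ctr library), which makes this a description only, 2 of the genes tested (0.0168%) were found. The other was Myh15, a myosin heavy chain gene that was named after its values had been seen, with 71, 30 and 23 reads in Ctr. Without αGlu 1 E2f7 was called at an adjusted p of 0.00412, in a range of 3.3e-09 to 0.427 over 14 alternatives.

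E2f8 (ENSMUSG00000046179, chr7:48866429-48881596, minus strand) was measured with more reads. It had 249, 290 and 194 reads in Ctr and 100, 145 and 98 in αGlu. Scaled to depth these were 11.3, 12.1 and 8.995 CPM in Ctr and 5.73, 4.56 and 3.59 CPM in αGlu. All αGlu libraries lay below all Ctr libraries, and αGlu 1 was the closest to them. The mean was 10.8 ± 1.62 CPM in Ctr and 4.63 ± 1.07 CPM in αGlu (SD, n = 3), or 2.33-fold lower, and the log2 fold change was -1.23 ± 0.21 (adjusted p = 0.149). Without αGlu 1 it was -1.41 ± 0.19 with an adjusted p of 0.00204, and over 15 alternatives the log2 fold change ran from -1.41 to -1.07 and the adjusted p from 0.000153 to 0.427. E2f8 shares 610 exon bases with Gm2788 on the other strand, a gene with 2 to 9 reads per library.

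The bases before the start sites of E2f7, E2f8 and of Rbl1, another E2F target gene, are shown because these 3 members had the lowest fold changes of the family once αGlu 1 was left out. They come from RefSeq (GRCm38.p6), as the 250 bases upstream of the start on the strand of the gene, at chr10:110745189-110745438 for E2f7, chr7:48881597-48881846 for E2f8 and chr2:157204535-157204784 for Rbl1. Capitals mark E2F words, searched on both strands as the letters TTTCCCGC, TTTCGCGC, TTTGCCGC and TTTGGCGC or the same without the first T, and the word TTTGAA, which the MuvB complex is known to bind.
E2f7: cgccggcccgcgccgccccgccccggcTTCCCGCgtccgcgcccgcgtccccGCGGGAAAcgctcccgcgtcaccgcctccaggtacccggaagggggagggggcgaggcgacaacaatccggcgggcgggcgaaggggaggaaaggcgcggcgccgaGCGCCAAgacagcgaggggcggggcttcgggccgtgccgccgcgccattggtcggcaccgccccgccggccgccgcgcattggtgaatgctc
E2f8: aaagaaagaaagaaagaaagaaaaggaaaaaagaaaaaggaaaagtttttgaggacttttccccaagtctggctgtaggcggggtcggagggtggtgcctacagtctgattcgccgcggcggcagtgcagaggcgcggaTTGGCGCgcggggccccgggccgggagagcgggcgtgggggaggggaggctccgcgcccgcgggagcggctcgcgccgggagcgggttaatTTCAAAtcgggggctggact
Rbl1: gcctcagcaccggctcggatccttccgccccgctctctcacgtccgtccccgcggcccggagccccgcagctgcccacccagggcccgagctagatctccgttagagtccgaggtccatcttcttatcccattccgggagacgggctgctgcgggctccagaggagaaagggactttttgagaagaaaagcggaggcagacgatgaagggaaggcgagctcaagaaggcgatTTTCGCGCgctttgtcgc

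The E2f7 stretch held TTCCCGC at 223 to 217 bases before the start, TTTCCCGC on the other strand at 198 to 191 bases and TTGGCGC on the other strand at 92 to 86 bases. That of E2f8 held TTGGCGC at 111 to 105 bases and TTTGAA on the other strand at 20 to 15 bases, and that of Rbl1 held TTTCGCGC at 18 to 11 bases. Among 32851 RefSeq windows of 300 bases, an 8-letter E2F word was found in 2.26%, a 7-letter one (which every 8-letter word contains) in 9.57% and TTTGAA in 17.9%. Windows were at hand for 7 members. E2f3 also held 2 E2F words and TTTGAA in 1 of its windows, and E2f2 held TTTGGCGC 40 to 47 bases after its start in 1 window and TTTGAA in the other. The windows of E2f1 and E2f6 held none of these letters, which says nothing of E2F binding there. That of E2f1 (chr2:154569377-154569676) lay inside the gene (chr2:154559407-154569892, minus strand), so the bases before its annotated 5′ end were not searched. E2f4, E2f5 and Rb1 had no window.

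E2F6 lacks the domain for pocket proteins and silences genes with a Polycomb complex. E2f6 (ENSMUSG00000057469, chr12:16810963-16839742, plus strand) was at 21.7, 22.8 and 22.6 CPM in Ctr against 17.02, 14.7 and 14.99 CPM in αGlu. Its Ctr libraries were within a narrow range, and the groups were well apart. The mean was 1.44-fold lower in αGlu (22.4 ± 0.62 against 15.6 ± 1.26 CPM, SD, n = 3), with a log2 fold change of -0.52 ± 0.09 (adjusted p = 0.149). Without αGlu 1 this was -0.59 ± 0.08 at an adjusted p of 0.00195, in a range of 0.00106 to 0.427 over 15 alternatives, so E2f6 was among the members past the adjusted threshold but under the fold limit there. Of 9 other genes of the E2F6 complex 7 were higher and 2 lower, with a median log2 fold change of 0.13 against 0.02 for all genes, and 1, Rnf2, had an unadjusted p under 0.05 (higher), a share near the 12.7% of all genes. Leaving out a library gave medians of 0.11 (αGlu 3) to 0.22 (αGlu 1), and 0 were called without αGlu 1. Rnf2, the ubiquitin ligase of the complex, had a log2 fold change of 0.37 ± 0.14 (adjusted p = 0.186), Rybp, which stimulates it, of 0.26 ± 0.11 (adjusted p = 0.215), and L3mbtl2, a chromatin reader, of 0.13 ± 0.08 (adjusted p = 0.338).

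The pocket-dependent repressors E2f4 and E2f5 had their higher values in αGlu 2 and αGlu 3. E2f5 (ENSMUSG00000027552, chr3:14578641-14606309, plus strand) was at 7.08, 7.68 and 7.60 CPM in Ctr against 7.57, 16.3 and 15.7 CPM in αGlu. αGlu 1 lay inside the Ctr range and the other αGlu libraries lay at about double the level, so the groups overlapped through 1 library. The log2 fold change was 0.83 ± 0.29 (adjusted p = 0.177) with all libraries and 1.09 ± 0.10 (adjusted p = 0.000422) without αGlu 1. Over 15 alternatives it ran from 0.65 to 1.09, with adjusted p-values from 0.000422 to 0.448. E2f5 shares 26 exon bases with 1810022K09Rik on the other strand, which was at 16.9, 18.4 and 21.1 CPM in Ctr against 23.8, 29.1 and 33.5 CPM in αGlu. That gene was above every Ctr library in αGlu 1 too, where E2f5 was not. Whether the counting used strand was not given in the sources used here, and the part of this overlap was not tested. E2f4 (ENSMUSG00000014859, chr8:105297663-105305370, plus strand) was at 36.4, 39.0 and 37.7 CPM in Ctr against 35.9, 48.7 and 47.0 CPM in αGlu. αGlu 1 was just below the Ctr libraries and the other αGlu libraries were above them, and the log2 fold change was 0.22 ± 0.13 (adjusted p = 0.310), or 0.34 ± 0.07 without αGlu 1 (adjusted p = 0.00992, in a range of 0.00992 to 0.655 over 15 alternatives).

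The 3 activators had overlapping groups. E2f1 (ENSMUSG00000027490, chr2:154559407-154569892, minus strand), the founding member of the family, was at 31.1, 32.4 and 30.7 CPM in Ctr against 28.2, 36.8 and 34.0 CPM in αGlu. The αGlu libraries lay on both sides of the Ctr libraries, with a log2 fold change of 0.07 ± 0.11 (adjusted p = 0.688), and its sign turned when αGlu 2 was left out (-0.01). E2f2 (ENSMUSG00000018983, chr4:136172394-136196057, plus strand), the least abundant activator, was at 7.63, 4.89 and 6.12 CPM in Ctr against 5.62, 5.06 and 4.73 CPM in αGlu, with a log2 fold change of -0.28 ± 0.20 (adjusted p = 0.392). Its Ctr libraries varied more than its αGlu libraries, and αGlu 1 and αGlu 2 lay among them with αGlu 3 just below. E2f3 (ENSMUSG00000016477, chr13:29906575-29986063, minus strand), whose start sites give a long and a short protein that gene counts cannot separate, was at 23.4, 23.6 and 21.7 CPM in Ctr against 21.5, 27.2 and 27.8 CPM in αGlu, with a log2 fold change of 0.16 ± 0.12 (adjusted p = 0.411). A p that misses the threshold does not show that these levels were equal. The 15 alternatives left E2f1 between -0.01 and 0.17, E2f2 between -0.43 and -0.09 and E2f3 between 0.09 and 0.26, and among these E2f3 had its lowest adjusted p, 0.0368, without αGlu 1.

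**Figure D2:**
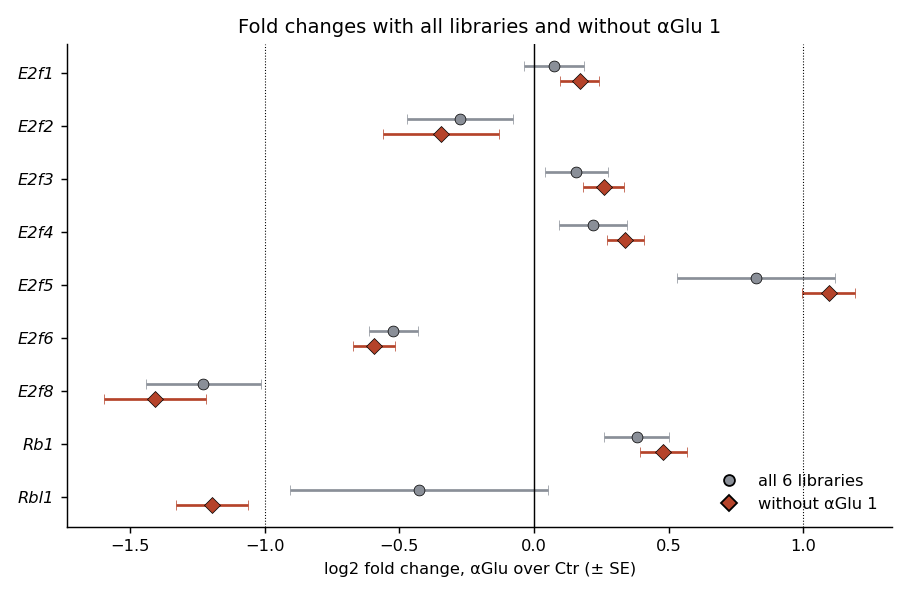
Log2 fold change of αGlu over Ctr (± SE) from edgeR's quasi-likelihood fit for 9 members, with all 6 libraries (grey circles) and without αGlu 1 (red diamonds), and dotted lines at a log2 fold change of 1 in both directions. E2f7 is not drawn because it had 0 reads in αGlu. The value of Rbl1 goes from -0.43 to -1.20 and that of E2f5 from 0.83 to 1.09, while E2f8 lies below -1 in both fits.

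Among the pocket proteins, RB1 holds back the activator E2Fs, while RBL1 and RBL2 work with E2F4 and E2F5. Rb1 (ENSMUSG00000022105, chr14:73183673-73325822, minus strand) was at 43.4, 36.6 and 40.6 CPM in Ctr against 44.6, 56.3 and 56.1 CPM in αGlu. Every αGlu library was above every Ctr library, although αGlu 1 exceeded Ctr 1 only slightly. The log2 fold change was 0.38 ± 0.12 (adjusted p = 0.162), or 0.48 ± 0.09 without αGlu 1 (adjusted p = 0.00671, in a range of 0.00671 to 0.433 over 15 alternatives). The exons of Rb1 overlap those of Rcbtb2 by 488 bases and of Lpar6 by 408 bases on the other strand. Rcbtb2 was at 103, 115 and 127 CPM in Ctr against 124, 83.6 and 86.2 CPM in αGlu, and Lpar6 was at 45.5, 54.8 and 75.3 CPM in Ctr against 77.6, 43.3 and 45.6 CPM in αGlu. Neither had the pattern of Rb1 as a whole gene. Reads in the shared bases were not counted apart, and the part of these overlaps in the values of Rb1 was not tested.

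Rbl1 (ENSMUSG00000027641, chr2:157145893-157204534, minus strand), the pocket protein most tied to dividing cells, was at 40.8, 48.2 and 52.7 CPM in Ctr against 64.6, 22.3 and 19.0 CPM in αGlu. αGlu 1 was above every Ctr library, and αGlu 2 and αGlu 3 were below every one. The means of 47.2 ± 6.03 CPM in Ctr and 35.3 ± 25.4 CPM in αGlu (SD, n = 3) hide this split, as does the log2 fold change of -0.43 ± 0.48 (adjusted p = 0.582). Without αGlu 1 it was -1.20 ± 0.13 with an adjusted p of 0.000991, and over 15 alternatives it ran from -1.20 to -0.12 with adjusted p-values of 0.000991 to 0.908. The same split was seen for 581 of the genes tested (4.87%), and the opposite one for 719 (6.03%). Rbl2, the pocket protein of resting cells, was at 60.3, 52.3 and 54.6 CPM in Ctr against 62.5, 61.6 and 63.0 CPM in αGlu. Its groups did not overlap, but the log2 fold change was 0.16 ± 0.08 (adjusted p = 0.242). The dimerisation partners Tfdp1 and Tfdp2, which E2F1 to E2F6 need to bind DNA, had log2 fold changes of -0.01 ± 0.16 (adjusted p = 0.972) and -0.14 ± 0.19 (adjusted p = 0.653).

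Levels were compared between genes on the length-corrected RPKM scale. In Ctr the order of mean RPKM was E2f4 (14.1), E2f1 (9.10), Rbl1 (7.197), Rb1 (6.12), E2f3 (3.86), E2f5 (3.82), E2f6 (3.61), E2f8 (1.81), E2f2 (1.17) and E2f7 (0.0886). Neighbours in this order had separate library ranges except Rbl1 with Rb1 and E2f3 with E2f5. In αGlu the order was E2f4 (17.4), E2f1 (10.1), Rb1 (8.44), E2f5 (7.22), Rbl1 (5.56), E2f3 (4.56), E2f6 (2.65), E2f2 (1.01), E2f8 (0.815) and E2f7 (listed at 0). The library ranges of the neighbours from E2f1 down to E2f3 overlapped here, so their order is not settled, while E2f2 was above E2f8 by a narrow margin (0.972 RPKM at the lowest against 0.961 at the highest).

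The make-up of the E2F pool can be read from the same scale, as the RPKM of a gene over the summed RPKM of E2f1 to E2f8. The sum was 38.0, 37.5 and 37.1 RPKM in Ctr and 33.8, 49.2 and 48.3 RPKM in αGlu, so it was lowest in αGlu 1 and highest in the other αGlu libraries. The activators E2f1 to E2f3 took 38.8%, 37.0% and 37.1% of it in Ctr and 38.0%, 35.3% and 35.0% in αGlu. E2f4 and E2f5 together took 46.4%, 48.0% and 48.7% in Ctr and 51.0%, 57.8% and 58.1% in αGlu, without overlap. The share of E2f6 was 9.42%, 9.56% and 9.89% in Ctr and 8.12%, 5.18% and 5.50% in αGlu. E2f7 and E2f8 together took 5.44%, 5.42% and 4.33% in Ctr and 2.85%, 1.67% and 1.37% in αGlu, also without overlap. Without division by length, which gives long transcripts more weight, the mean shares of CPM in Ctr and αGlu were 27.0% and 31.0% for E2f4, 5.34% and 9.15% for E2f5, 16.01% and 11.2% for E2f6 and 7.72% and 3.37% for E2f8. For these genes sizes moved with the scale while the order of the groups did not. For E2f1 the order turned, with mean shares of 24.3% in Ctr and 23.3% in αGlu by RPKM and of 22.5% and 23.4% by CPM. Within the pocket proteins, the share of Rbl1 in the summed RPKM of Rb1, Rbl1 and Rbl2 was 30.9%, 38.2% and 38.6% in Ctr and 40.7%, 17.5% and 15.2% in αGlu, and that of Rb1 was 32.8%, 28.9% and 29.6% in Ctr and 28.0%, 44.1% and 44.8% in αGlu. In αGlu 1, Ctr 2 and Ctr 3 the order was Rbl1 over Rb1. In αGlu 2 and αGlu 3 it was the reverse, as it was by a small margin in Ctr 1. These shares are descriptions of RNA, without a test, and neither protein level nor phosphorylation was measured.

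**Figure D3:**
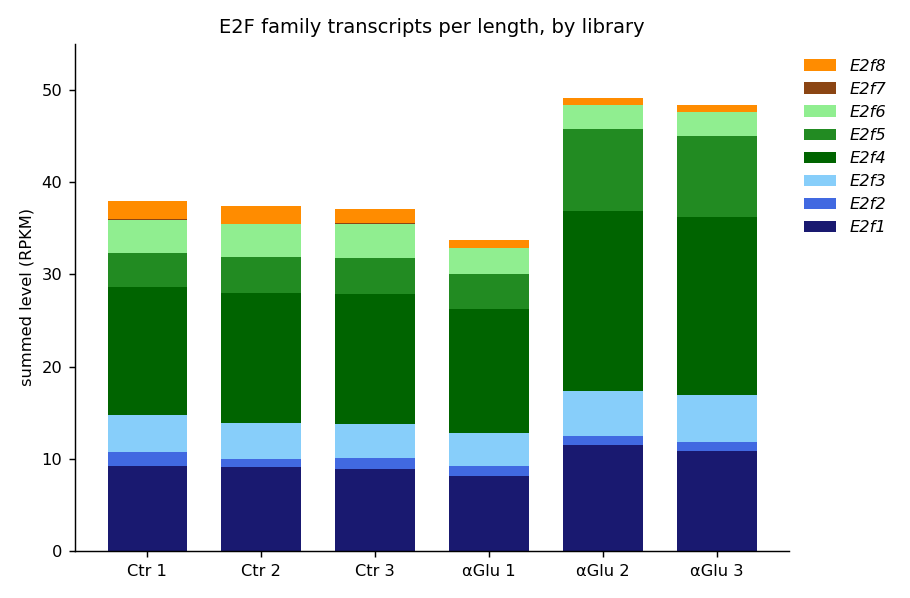
Summed RPKM of the 8 E2F genes in each library, stacked by gene (linear axis from 0), with activators in blue, E2f4 to E2f6 in green and E2f7 and E2f8 in orange and brown. The stack is 37.1 to 38.0 RPKM high in Ctr and 33.8, 49.2 and 48.3 RPKM in αGlu 1, 2 and 3, and the orange segment of E2f8 is thinner in every αGlu library.

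The genes that act on the family or answer to it were described by lists written from general knowledge. Earlier results of these data were known when the lists were chosen, so their counts and medians are a description. They are given beside the median log2 fold change of 0.02 over all genes tested. The plainest pattern was in the targets. Of 28 E2F target genes of the G1/S transition 27 were lower and 1, Slbp (0.02 ± 0.09), was higher in αGlu, with a median log2 fold change of -0.72, and 22 had an unadjusted p under 0.05, all lower, against 11.9% of all genes tested. The groups did not overlap for 20 of them, all lower, against 15.9% of all genes. Without αGlu 1 the median was -0.83 and 11 were called, all lower, against 10.5% of all genes in that fit, and leaving out any library gave medians from -0.86 to -0.61. Of the target genes Uhrf1 helps to copy DNA methylation to new strands. It was at 13.9, 6.39 and 10.4 CPM in Ctr against 1.78, 2.14 and 1.98 CPM in αGlu. Its log2 fold change was -2.37 ± 0.31 (adjusted p = 0.149). Chek1, the replication checkpoint kinase, was at 2.22, 1.34 and 1.90 CPM in Ctr against 0.344, 0.440 and 0.330 CPM in αGlu (-2.26 ± 0.31, adjusted p = 0.149). Rrm2, a subunit of ribonucleotide reductase, was at 12.6, 4.34 and 8.86 CPM in Ctr against 0.745, 1.04 and 1.06 CPM in αGlu (-3.16 ± 0.44, adjusted p = 0.149). For all 3 genes αGlu 1 was as low as the other αGlu libraries. They were named for the smallest unadjusted p with all libraries, a choice that favours genes low in αGlu 1 too. Other targets of the list had αGlu 1 apart. In αGlu 1, 2 and 3 Pcna was at 326, 125 and 120 CPM and Cdt1 at 27.2, 16.4 and 15.5 CPM. Pola1 was at 12.95, 8.43 and 8.17 CPM. For Cdt1 and Pola1 αGlu 1 lay inside the Ctr range, and for Pcna below it. Rbl1, a target of the same factors, was above every Ctr library in αGlu 1. Whether Rbl1 differs from the targets of the list in this was not tested.

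Of the cyclins and kinases that phosphorylate pocket proteins 2 were higher and 8 lower, with a median log2 fold change of -0.40, which was -0.35 without αGlu 1 and went to -0.17 without Ctr 1. At an unadjusted p under 0.05 were Ccna2 and Ccne2, both lower, and Ccnd3, which was higher, so 3 of 10 genes against 24.7% of all genes (11.9% lower and 12.7% higher). Ccna2, the cyclin of S and G2 phase, was at 10.4, 3.09 and 4.82 CPM in Ctr against 0.745, 0.377 and 0.147 CPM in αGlu (log2 fold change -3.90 ± 0.71, adjusted p = 0.149). Ccne2, a cyclin of S phase entry, was at 3.86, 1.80 and 2.97 CPM in Ctr against 0.229, 0.535 and 0.696 CPM in αGlu (-2.51 ± 0.47, adjusted p = 0.149). Both cyclins were lower in every αGlu library. Ccnd3, a D-type cyclin of G1, was at 9.72, 8.14 and 12.1 CPM in Ctr against 8.08, 31.3 and 37.1 CPM in αGlu (1.36 ± 0.54, adjusted p = 0.196), with αGlu 1 below every Ctr library. The Ctr libraries themselves spread from 3.09 to 10.4 CPM for Ccna2. Ccnd1, the D-type cyclin that growth factors induce, was named after its values had been seen, with 63.1, 41.9 and 68.9 CPM in Ctr against 22.8, 0.912 and 0.733 CPM in αGlu. It was lower in every αGlu library and lowest by far in αGlu 2 and αGlu 3, with a log2 fold change of -2.89 ± 1.29 (adjusted p = 0.225). Without αGlu 1, 3 genes of the list were called as lower, namely Ccna2, Ccne2 and Ccnd1, against 10.5% of all genes, and 1 as higher, Ccnd3, against 8.05%.

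Of 7 kinase inhibitors 5 passed the filter, and Cdkn2a and Cdkn2b did not. Cdkn1b, Cdkn1a and Cdkn2d had an unadjusted p under 0.05 and were higher, against 12.7% of all genes. Cdkn1b, which blocks CDK2, was at 25.7, 26.7 and 28.7 CPM in Ctr against 31.1, 45.9 and 48.7 CPM in αGlu (log2 fold change 0.63 ± 0.18, adjusted p = 0.158). Cdkn1a, a target of p53, was at 123, 182 and 189 CPM in Ctr against 226, 265 and 215 CPM in αGlu (0.52 ± 0.19, adjusted p = 0.181), and Cdkn2d, an inhibitor of CDK4 and CDK6, had a log2 fold change of 0.36 ± 0.14 (adjusted p = 0.190). Every αGlu library was above every Ctr library for Cdkn1b and Cdkn1a. Over the 5 inhibitors tested the median log2 fold change was 0.36 with all libraries and 0.47 without αGlu 1. Without αGlu 1 Cdkn2b passed the filter as well, with 3 to 25 reads per library in all 6, and the median over 6 was -0.56. The 3 called there, all lower (against 10.5% of all genes) and named after their values had been seen, were Cdkn1c (-5.06), Cdkn2b (-1.95) and Cdkn2c (-1.59). Cdkn1c was at 73.2, 63.1 and 39.8 CPM in Ctr against 51.0, 2.20 and 1.28 CPM in αGlu, so inhibitors with higher and with lower values stood side by side in αGlu 2 and αGlu 3.

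In the MuvB complex, which joins E2F4 and the pocket proteins to silence genes at rest and MYBL2 and FOXM1 to switch them on in G2 phase, 3 of 8 genes had an unadjusted p under 0.05, all lower, against 11.9% of all genes. These were the activators Foxm1 (log2 fold change -1.94 ± 0.39, adjusted p = 0.149), Mybl2 (-1.56 ± 0.38, adjusted p = 0.156) and Mybl1 (-0.84 ± 0.28, adjusted p = 0.168). Foxm1 was at 6.90, 3.09 and 4.03 CPM in Ctr against 0.802, 1.45 and 1.36 CPM in αGlu, and the groups did not overlap for any of the 3. The 5 core genes Lin9, Lin37, Lin52, Lin54 and Rbbp4 had log2 fold changes from -0.01 to 0.04 (adjusted p from 0.859 to 0.982), and a difference between core and activators was not tested. Over the list the median log2 fold change was -0.01, or -0.07 without αGlu 1, when Foxm1 (-1.74) and Mybl2 (-1.70) were called, against 10.5% of all genes. Of 10 corepressors that pocket proteins recruit, 4 were higher and 6 lower, with a median of -0.02, or -0.04 without αGlu 1, when 0 were called. The histone-binding Rbbp7 (-0.35 ± 0.11, adjusted p = 0.160) and the chromatin remodeller Smarca2 (-0.19 ± 0.06, adjusted p = 0.172) were lower in every αGlu library. The histone deacetylase Hdac1 was higher (0.58 ± 0.20, adjusted p = 0.174), from 36.3, 35.3 and 38.3 CPM in Ctr to 38.5, 61.0 and 64.7 CPM in αGlu, and αGlu 1 exceeded the highest Ctr library only slightly. Without αGlu 1 the log2 fold change of Hdac1 was 0.77. An unadjusted p under 0.05 was thus found for 3 of 10 corepressors, 2 lower and 1 higher, against 24.7% of all genes.

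Of the 3 genes of ubiquitin ligases that remove E2F proteins, Ccnf was lower in every αGlu library (log2 fold change -0.77 ± 0.24, adjusted p = 0.162). Fzr1 was at 21.2, 19.3 and 20.4 CPM in Ctr against 20.6, 37.8 and 39.2 CPM in αGlu (0.69 ± 0.25, adjusted p = 0.180), and Skp2 was at 16.5, 19.4 and 18.7 CPM in Ctr against 20.9, 11.7 and 12.1 CPM in αGlu (-0.29 ± 0.24, adjusted p = 0.458). In both, αGlu 1 was away from αGlu 2 and αGlu 3, as for E2f5 and Rbl1. Without αGlu 1 Fzr1 was at 0.92, Skp2 at -0.61 and Ccnf at -0.81 (log2 fold changes, 0 called), and the median of the list went from -0.29 to -0.61, while it was -0.14 without αGlu 2 and -0.16 without αGlu 3. Of 7 E2F target genes of apoptosis 6 passed the filter, with a median log2 fold change of -0.19, and 2 had an unadjusted p under 0.05, both higher, against 12.7% of all genes tested. Among them was Apaf1, the scaffold of the apoptosome, with 54.7, 57.4 and 49.9 CPM in Ctr and 64.9, 94.8 and 96.9 CPM in αGlu (0.66 ± 0.17, adjusted p = 0.156). Bcl2l11, which encodes the death inducer BIM, was at 164, 162 and 174 CPM in Ctr against 161, 42.8 and 44.6 CPM in αGlu (-1.01 ± 0.54, adjusted p = 0.280), with αGlu 1 below every Ctr library by a small margin only. Without αGlu 1 the median of the list was -0.41 and 2 genes were called, both lower, against 10.5% of all genes. These were Bcl2l11 (-1.93) and Pmaip1 (-1.13), named after its values had been seen, which encodes another death inducer. The median was -0.13 without αGlu 2 and -0.05 without αGlu 3.

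**Figure D4:**
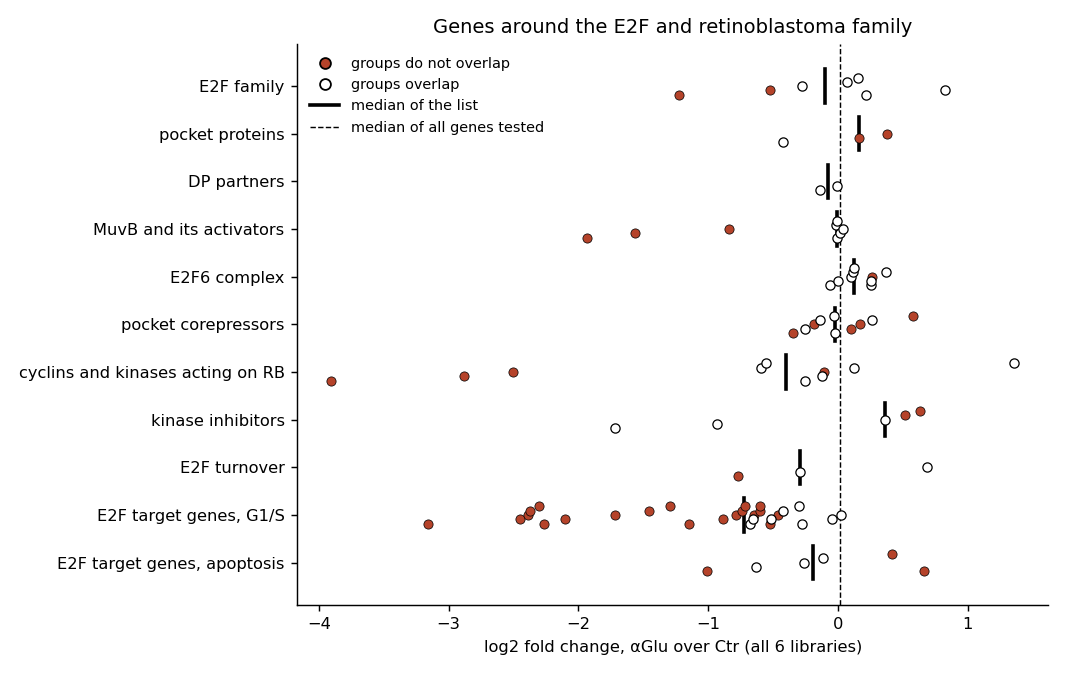
Log2 fold change of αGlu over Ctr (all 6 libraries) for each gene tested in 11 lists around the family, with filled points where the groups do not overlap, thick lines at the median of a list and a dashed line at the median of all genes tested. E2f7 is not drawn as a point, since it had 0 reads in αGlu, but counts in the median of its list. The targets of the G1/S transition lie to the left with a median of -0.72, while most MuvB, corepressor and E2F6 complex genes lie near 0.

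The genes whose pattern over the 6 libraries was nearest to that of a member were sought among 8568 genes whose log2 CPM averaged at least 3, by the root mean square (RMS) difference of log2 CPM centred on each gene's mean. For E2f1 these were Rela (0.025) and Zer1 (0.028), and Rela, a subunit of NF-κB, was at 69.5, 70.0 and 69.5 CPM in Ctr against 63.4, 83.2 and 77.5 CPM in αGlu. For E2f2 they were Tgfbr1 (0.066) and Prune2 (0.071). For Rb1 they were Ndufc2 (0.032) and Cdc26 (0.038), a subunit of the anaphase-promoting complex. E2f8 was nearest to Mical2 (0.123) and Actg1 (0.125), both of the actin cytoskeleton, and Actg1 was at 1467, 1316 and 1213 CPM in Ctr against 691, 544 and 511 CPM in αGlu. Rbl1 was nearest to Gyg (0.081) and Rasgef1b (0.092), with Gyg, the primer of glycogen synthesis, at 107, 116 and 137 CPM in Ctr against 158, 54.5 and 54.0 CPM in αGlu. For E2f7 the search gave Fn1 (0.720) and Efr3b (0.754), but its minimum level kept out low genes such as Myh15, so likeness to E2f7 was not assessed. Likeness over 6 libraries that fall into a few clusters is a description of these libraries.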

How the data were processed

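RNA of 6 libraries (Ctr and αGlu, 3 each) was sequenced after Illumina stranded mRNA preparation. For read processing the authors used the RNA-seq Analysis Portal of QIAGEN. The deposited counts are whole reads per gene over exons, the RPKM values were scaled by the authors to exon length and depth, while TPM values, also deposited, served as a check of rank order. The deposited CPM column was not used. The submitters' processing notes name GRCm38. Aligner, annotation release, treatment of reads that fit several genes and use of strand in counting are not given in the sources used here. Positions and exon overlaps are from GENCODE M21.

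Counts were filtered with filterByExpr (minimum count 10, minimum total 15), scaled by TMM and fitted with group as the only term by the two-sided quasi-likelihood test of edgeR 4.0.16 in R 4.3.3, with Benjamini-Hochberg adjustment over 11933 genes. Calls needed an adjusted p under 0.1 together with an absolute log2 fold change above 1. CPM values are counts per TMM-adjusted library size, and log2 CPM has a prior count of 2. Alternatives were DESeq2 1.42.0, voom of limma 3.58.1, a likelihood-ratio test, other scalings, filters and thresholds, the replicate block, shares from CPM and each library left out in turn. Libraries were treated as independent, although the labels name no animals. The study describes replicates as preparations from different organisms, but not whether a Ctr and an αGlu library shared an animal. For the level of the fragment in αGlu and Ctr macrophages it used a paired test. In simulated data for this comparison (11933 genes, 200 changed, spread of all 6 libraries) the quasi-likelihood test recovered 84.5% of changed genes with 12.9% of calls false, and DESeq2 91.5% with 28.5% false. Genes were drawn independently there, and no simulated library departed from its group over many genes as αGlu 1 did. These rates therefore need not hold for the real libraries.

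The members and gene lists were chosen with earlier results of these data known. Named are the members, Rbl2, Tfdp1 and Tfdp2, of each other list the 3 genes with the smallest unadjusted p, and for 6 members the 2 genes nearest in pattern. The values of 1 gene named by this rule are not reported here.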

Additional observations from a re-analysis of the deposited data

How the results depend on the processing

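The number of members called was 0 with the quasi-likelihood test on all libraries, 2 with DESeq2, 2 with the likelihood-ratio test, and 0 to 4 when 1 library was left out in turn. Only the fit without αGlu 1 gave 4, and the other 5 gave 0. The number of all genes called was 0, against 1119 with DESeq2, 899 with the likelihood-ratio test, 17 with the replicate block and 0 to 2290 with 1 library left out, where αGlu 1 gave the 2290. Limma-voom, RLE, upper-quartile factors, library size alone, both other filters and both other thresholds gave 0 for members and for all genes. Of 149 member fold changes under these alternatives 140 kept direction and side of the threshold, 8 passed it, and 1 turned, that of E2f1, to -0.00921 without αGlu replicate 2 (adjusted p = 0.975), in a range of -0.00921 to 0.169 over the libraries left out. The cause was not tested. E2f7 could not be fitted with a filter of CPM above 1 in 3 libraries. Median log2 fold changes of all genes were 0.01 with RLE, 0.03 with upper-quartile factors and 0.10 with library size alone, against 0.02. Genes without overlap between groups numbered 3599, and 3688 and 3586 with library size alone and RLE.

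Replicate numbers are shared between groups in the labels. Same-numbered libraries deviated together at r of 0.076, 0.065 and 0.154, and the other combinations at r of -0.112 to 0.046. Deviations within such small groups, with αGlu 1 apart from its own, cannot settle whether these libraries were pairs. The main fit did not take them as pairs, and the replicate block called 0 members. Depth limits E2f7, which had at most 26 reads in a library.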
